A study of Homo sapiens with 12 samples.

Results

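The comparison described here is that of 3 drugs given together with solvent alone in A2058, an established human melanoma cell line whose growth is driven by a mutated BRAF kinase. Its members are the 3 arrays of cells treated for 24 h with dabrafenib (100 nM), trametinib (10 nM) and entinostat (1 µM), a group named DTE, and the 3 arrays of cells given DMSO, which makes 6 of the 12 arrays of the study and all 14580 named genes of its expression table. The other 6 arrays held dabrafenib with trametinib at the same doses (DT, 3 arrays) and entinostat alone at the same dose (E, 3 arrays), both also for 24 h, and they are used to place DTE. All 4 groups are the same line with no genetic change between them, so nothing here extends beyond A2058. Each triplicate is called biological in the sample titles and technical in the design text, and a p-value here reflects no more than the scatter of such arrays, whose source may be purely technical. The study as a whole asked about DNA repair in melanoma cells given this combination.

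Dabrafenib blocks the BRAF kinase and trametinib blocks the MEK kinases that BRAF activates, so that the ERK kinases at the end of this cascade are no longer switched on. ERK drives the transcription of growth genes and of its own inhibitors, the DUSP phosphatases and the Sprouty proteins, and in melanoma it also restrains the pigment cell programme led by the transcription factor MITF. Entinostat blocks class I histone deacetylases, enzymes that take acetyl groups off histones. Acetylated histones mark open chromatin, and such drugs are known to raise genes that are otherwise silent in a cell type, among them neuronal ones.

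Values are log2 of the deposited array intensity, and differences are between group means of 3 arrays. A gene is called when its adjusted p (limma over all 12 arrays, Benjamini-Hochberg over 14580 genes) was under 0.05. DTE was higher than DMSO for 1405 genes (9.64% of those tested) and lower for 3285 (22.5%). Differences of at least 2-fold were more evenly split, with 327 genes higher (2.24%) and 280 lower (1.92%). The surplus of lower genes lay among bright genes: the median difference was 0.01 in the dimmest 10th of genes and -0.33 in the brightest, against -0.11 over all genes. The upper quartile of each array's log2 values, taken over the 14580 named genes only, was 6.33 ± 0.10 (SD, n = 3) in DTE and 6.57 ± 0.11 (SD, n = 3) in DMSO. The difference reached the smallest exact two-sided permutation p that 3 against 3 allows (0.1). After quantile normalization, which gives every array the same distribution, 2065 genes were called higher and 2064 lower, and 1379 and 2007 of the genes called before were among them. Whether the shift of bright genes is a difference in RNA per cell or in how the arrays were run was not tested. In RNA from whole cultures, fewer cells of a kind and less RNA per cell cannot be told apart. The pigment cell regulator SOX10 was at 8.45 in DMSO and 8.34 in DTE, while the pigment cell gene MLANA read 4.31, 4.55 and 4.50 in DMSO. None of the 4 measured blood cell markers was called between DTE and DMSO. A missing call is no measure of absence, as the blood cell marker CD68 read 8.78, 8.65 and 8.77 in DMSO. The identity of the line was not tested with these markers.

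**Figure D1:**
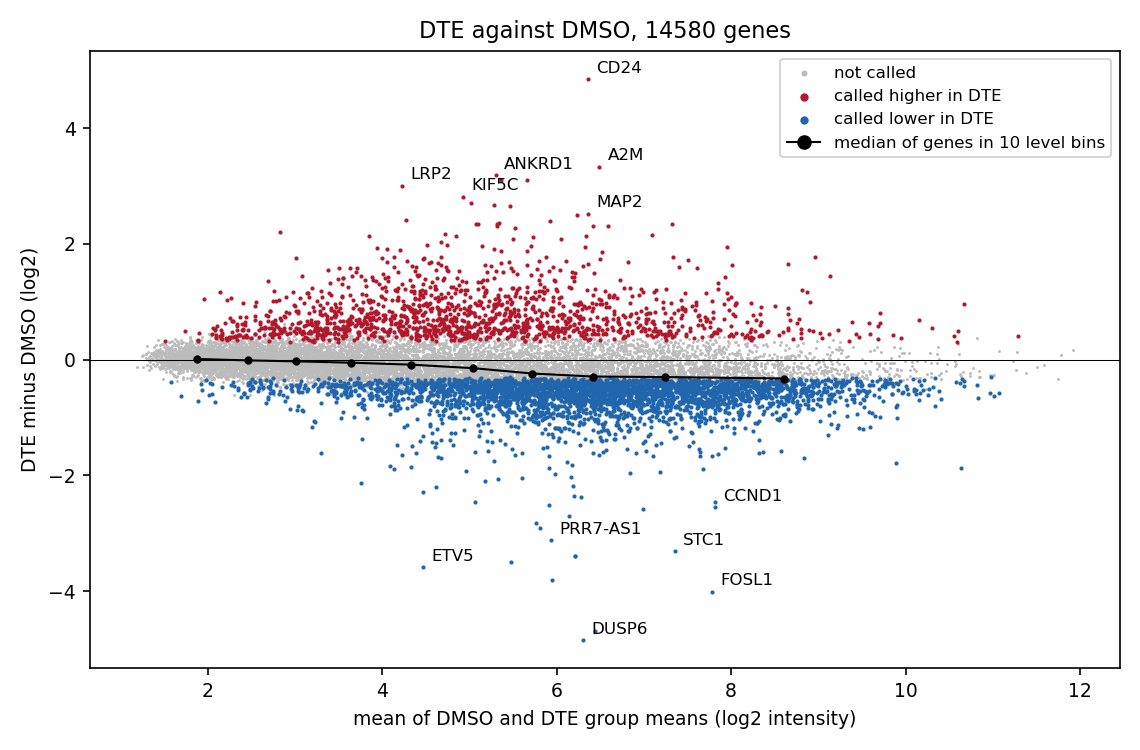
Difference between DTE and DMSO (log2, vertical axis) against the mean of both groups (log2 intensity, horizontal axis), 1 point per gene, with called genes coloured and the black line joining the medians of 10 level bins. The black line falls from 0.01 in the dimmest bin to -0.33 in the brightest, and CD24 (4.85) and DUSP6 (-4.84) mark the ends of the range.

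The listed targets of ERK signalling all fell under the 3 drugs, with differences from -4.84 to -0.68. Their list was chosen with earlier results of these data known, so its count is a description and no test. All 18 measured genes of this list of ERK output were called lower in DTE, beside 22.5% of all genes. Their median was -2.24 against -0.11 for all genes, and 18 of 18 were also lower after quantile normalization (median -2.10). DUSP6, the phosphatase that removes phosphate from ERK, read 8.64, 8.96 and 8.57 on the DMSO arrays and 4.25, 3.33 and 4.07 on the DTE arrays. That is a 28.6-fold fall (log2 difference -4.84, SE 0.19, adjusted p = 4.12e-12), with no overlap between the groups and the widest spread on the DTE side. SPRY2, a Sprouty inhibitor of the pathway, read 7.82, 7.95 and 7.96 in DMSO and 4.48, 4.57 and 4.51 in DTE. SPRY4 and DUSP4, a second member of each of these inhibitor families, fell by 3.49 and 3.40 on the log2 scale.

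Transcription factors that pass the ERK signal on fell too, by unequal amounts. FOSL1, a partner of JUN in the AP-1 factor, read 9.85, 9.77 and 9.73 in DMSO and 5.81, 5.56 and 5.95 in DTE, a 16.1-fold fall. ETV4 and ETV5, ETS-family factors, fell by 3.80 and 3.58, and ETV5 ended at 2.68, below the lower quartile of all genes (2.99 in DTE), where the array may no longer follow a further fall. MYC fell by 1.23. CCND1, the cyclin D1 gene that carries growth signals into the cell cycle, read 9.12, 9.27 and 8.87 in DMSO and 6.57, 6.54 and 6.50 in DTE, a 5.87-fold fall.

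For part of these genes the fall was less deep with entinostat present than with dabrafenib and trametinib alone. Of the 18 genes, 9 were called higher in DTE than in DT and 0 lower, against 13.8% and 5.09% of all genes in that comparison, with a median of 0.35. The median difference from DMSO was -2.24 in DTE and -3.10 in DT. SPRY2 stood at 3.67 ± 0.16 (SD, n = 3) in DT and 4.52 ± 0.047 in DTE (difference 0.85, adjusted p = 2.98e-05), and its 3 arrays of each group did not overlap. CCND1 was 0.80 higher in DTE than in DT (adjusted p = 0.000505). CXCL8, the neutrophil attractant interleukin 8, was at 7.18 in DMSO, 2.86 in DT and 8.91 in E, against 5.15 in DTE. DUSP6 went the other way by -0.36, which did not pass the test (adjusted p = 0.218), and FOSL1 differed from DT by 0.03 (adjusted p = 0.909). Against entinostat alone all 18 genes were lower in DTE, in a comparison where 22.4% of all genes were called lower and 2.08% higher (5.84% and 6.99% after quantile normalization).

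The 12 genes with the largest falls in DTE joined 7 of these ERK targets (DUSP6, FOSL1, ETV4, ETV5, SPRY4, DUSP4 and SPRY2) with CEMIP, STC1, UCN2, SH2D2A and PRR7-AS1. CEMIP, which breaks down hyaluronan in the extracellular matrix, read 8.84, 8.95 and 8.56 in DMSO and 4.10, 4.19 and 3.99 in DTE, a 25.8-fold fall. STC1, a secreted glycoprotein hormone, fell by 3.30, and UCN2, a peptide of the corticotropin-releasing family, fell by 2.90. SH2D2A, a signalling adaptor, fell by 2.82. The antisense RNA PRR7-AS1 read 7.32, 7.77 and 7.40 in DMSO and 4.23, 4.56 and 4.36 in DTE, and whether its probes also read the gene on the opposite strand was not tested.

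**Figure D2:**
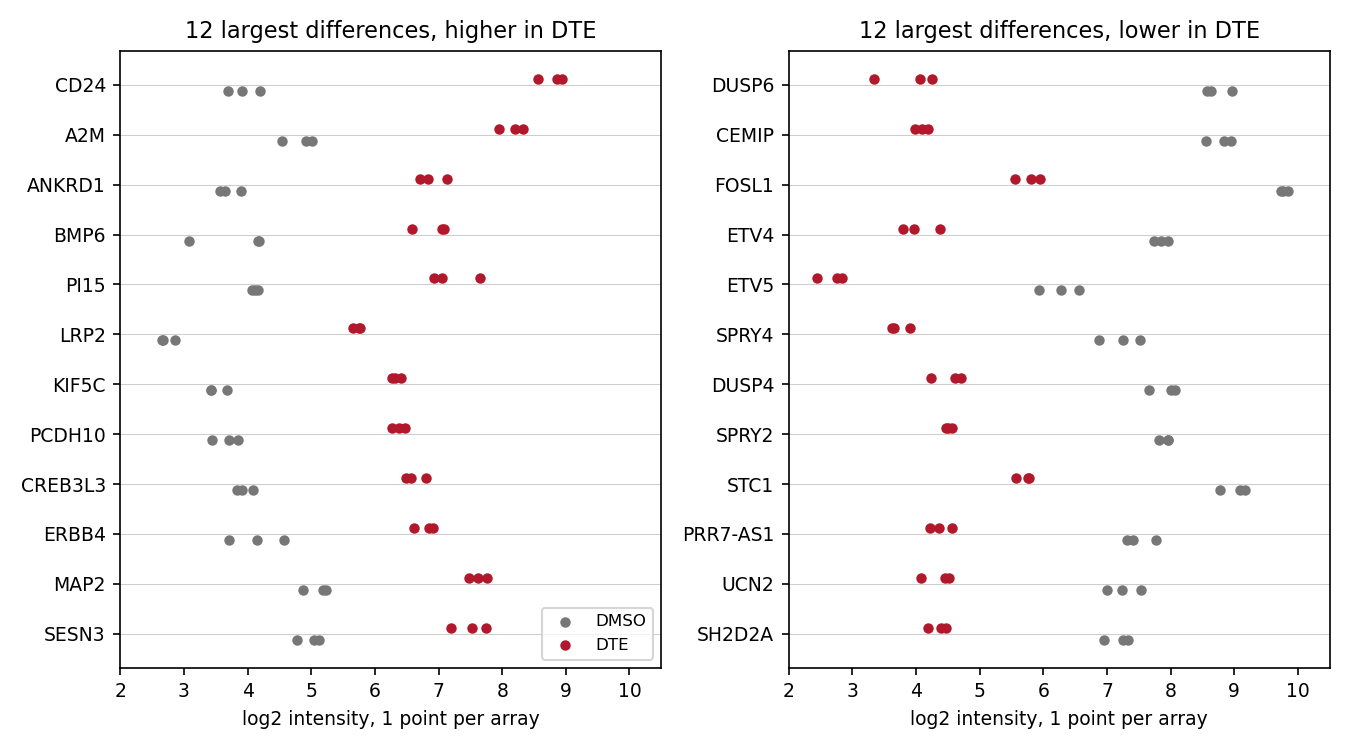
Log2 intensity on each of the 3 DMSO arrays (grey) and 3 DTE arrays (red) for the 12 genes with the largest differences in each direction. No gene's groups overlap, which also held for 12.6% of all genes on the higher and 28.6% on the lower side, and BMP6 in DMSO (3.08 to 4.18) and DUSP6 in DTE (3.33 to 4.25) have wide spreads.

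The largest rise was that of CD24, a heavily glycosylated cell surface protein known as a signal that holds back macrophages. It read 3.91, 3.70 and 4.20 in DMSO and 8.56, 8.87 and 8.93 in DTE, a 28.9-fold rise (log2 difference 4.85, SE 0.15, adjusted p = 1.29e-13). CD24 has near-identical copies elsewhere in the genome that a probe set may also read. A2M, the secreted protease trap alpha-2-macroglobulin, read 4.54, 5.01 and 4.92 in DMSO and 7.94, 8.32 and 8.20 in DTE, 10.1-fold higher. LRP2, the large endocytic receptor megalin, went from 2.72, among the dimmest 25% of genes, to 5.73, so that its fold of 8.02 may be too small. PI15, a secreted protease inhibitor, rose by 3.10, BMP6, a bone morphogenetic protein, by 3.10, and PCDH10, a protocadherin of cell contacts, by 2.70.

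For 4 of the 12 largest rises the level in DTE did not differ from that under entinostat alone by the test, while for the other 8 it was above. ANKRD1, a nuclear protein and known YAP target, was at 6.76 ± 0.18 (SD, n = 3) in E and 6.89 ± 0.22 in DTE, a difference of 0.13 (SE 0.15, adjusted p = 0.576). BMP6 differed from E by 0.10 (adjusted p = 0.781), the kinesin motor gene KIF5C by -0.20 (adjusted p = 0.27) and CREB3L3, a membrane-bound transcription factor, by 0.32 (adjusted p = 0.0906). MAP2, a microtubule protein of neurons, was 0.44 higher in DTE than in E (adjusted p = 0.0291), a call lost under 4 alternative settings. SESN3, which restrains the growth kinase mTORC1, was at 6.73 in DT and 6.42 in E and at 7.48 in DTE, above both. ERBB4, a receptor tyrosine kinase, was at 5.03 in DT and 5.70 in E, against 6.79 in DTE. These comparisons share the DTE arrays and are given side by side.

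DTE stood beyond every other group for a small set of genes. A gene was counted here when DTE was higher, or lower, than each of DMSO, DT and E, with the largest of the 3 p-values adjusted over all genes. There were 45 such genes higher (0.309%) and 33 lower (0.226%), of which 10 (0.0686%) and 2 (0.0137%) differed from every group by at least 2-fold. After quantile normalization the counts were 157 and 37, with 43 and 15 of the first genes among them. Leaving out 1 array at a time gave between 21 and 46 genes higher and between 11 and 31 lower.

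A2M had the largest distance to the nearest other group. It was at 4.82 ± 0.25 (SD, n = 3) in DMSO, 5.69 ± 0.098 in DT and 5.99 ± 0.047 in E, against 8.16 ± 0.19 in DTE, and DTE exceeded DT by 2.47 and E by 2.16 (adjusted p = 1.64e-09 and 3.28e-09). PMP2, a fatty acid carrier of myelinating Schwann cells, read 2.54, 3.14 and 2.66 in DMSO, 2.89, 2.81 and 3.15 in DT and 3.24, 3.31 and 3.08 in E, against 5.05, 4.58 and 5.11 in DTE. Only the DTE arrays of PMP2 stood apart, and its mean in DMSO was among the dimmest 25%. NPY6R, a neuropeptide Y receptor pseudogene in humans, was in the dimmest 25% in DMSO, DT and E (1.73, 2.22 and 2.04) and reached 3.93 in DTE. CD24 exceeded DT by 2.01 and E by 1.40, and LRP2 exceeded E by 1.32 while DT (2.57) was level with DMSO.

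Among the lower genes BCL2A1, an anti-apoptotic member of the BCL2 family and a known MITF target, differed in DTE alone. It read 7.78, 7.92 and 8.06 in DMSO, 7.94, 8.15 and 8.05 in DT and 8.03, 8.39 and 8.24 in E, against 6.54, 6.54 and 6.96 in DTE. DTE was 1.24 below DMSO, 1.36 below DT and 1.54 below E on the log2 scale (adjusted p = 3.14e-06, 1.55e-06 and 4.09e-07), and no DTE array overlapped any other array. TRIB1, a pseudokinase that helps degrade transcription factors, was at 7.19, 6.82, 7.25 and 5.97 in DMSO, DT, E and DTE. PLXNA1, a semaphorin receptor, was at 8.67, 8.15, 8.31 and 7.04 in the same order. PRR7-AS1 was already low in DT (5.24) and E (5.60) and lower again in DTE (4.38). JADE2, a scaffold of a histone acetyltransferase complex, was at 5.92, 5.47, 4.96 and 3.99, and its call was lost without replicate 2 of E, replicate 1 of DTE or replicate 3 of DTE.

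MIR1226, a microRNA precursor gene on chromosome 3, was at 4.56 in DMSO, 4.53 in DT and 4.59 in E, against 3.61 in DTE. Its 2 mature products, from RefSeq on build GRCh38.p14, are shown because this is the microRNA gene that the results name, with the seed (bases 2 to 8) in capitals.
hsa-miR-1226-5p: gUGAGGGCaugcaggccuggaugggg
hsa-miR-1226-3p: uCACCAGCccuguguucccuag
The probe set does not tell these products from their precursor, and the seeds of both arms differ. Of the 1042 microRNA precursor genes on the array, 21 were called higher in DTE than in DMSO and 77 lower. Both are smaller shares than the 9.64% and 22.5% of all genes.

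**Figure D3:**
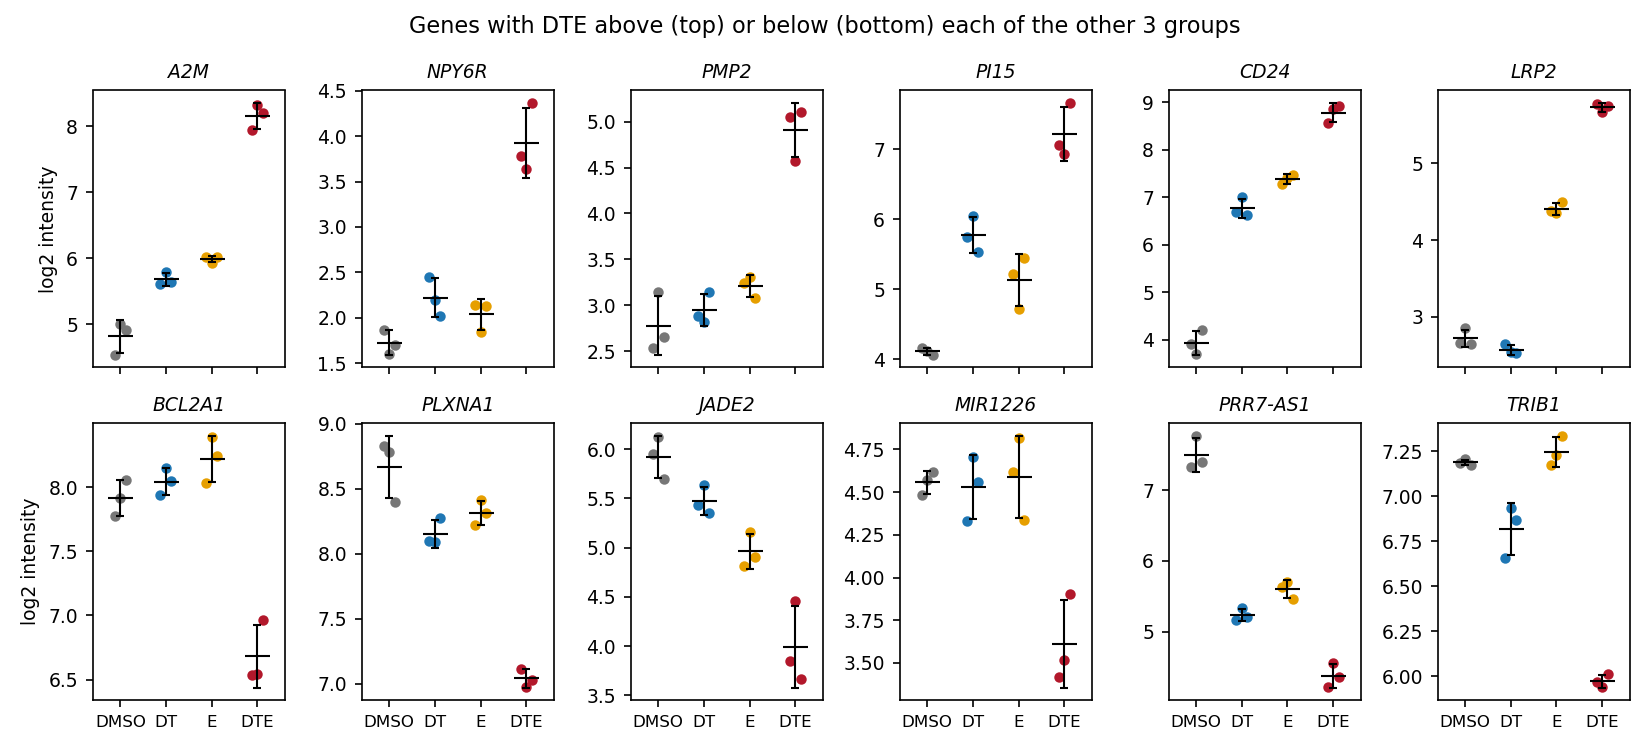
Log2 intensity on every array of the 4 groups for the 6 genes with DTE highest above (top row) and the 6 with DTE farthest below (bottom row) each other group, with a bar at the mean and whiskers of 1 SD (n = 3). In BCL2A1 and MIR1226 the DMSO, DT and E arrays lie together and the 3 DTE arrays lie below them.

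The 3 drugs together differed from the sum of the separate effects of DT and E for 151 genes (1.04%), 82 with DTE above that sum (0.562%) and 69 below (0.473%). After quantile normalization the counts were 174 and 140. Leaving out 1 array at a time gave 46 to 108 above, fewest without replicate 1 of DT, and 36 to 69 below, fewest without replicate 3 of DMSO. CTLA4, an immune checkpoint receptor, was at 5.34 in DMSO, 3.22 in DT and 4.47 in E, against 3.89 in DTE, so that DTE lay 1.55 above the sum and yet 1.44 below DMSO. SMAGP, a small adhesion protein, was at 8.61, 5.87, 8.14 and 6.94 in the same order. DKK1, a secreted inhibitor of Wnt signalling, was at 7.61 in DMSO and 5.74 in DT, and at 8.46 in E and 8.13 in DTE. TP53INP2, an autophagy regulator, rose to 8.34 in DT and reached 7.16 in DTE, 1.74 below the sum. TMEM156 and PRR9 were raised in E alone (4.50 and 4.87) and stood at 2.20 and 2.52 in DTE, in the dimmest 25%.

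Part of the pigment cell genes rose in DTE, and most stood below their level under dabrafenib with trametinib. Of 12 measured genes of melanocyte differentiation, 5 were called higher and 1 lower than in DMSO, with a median of 0.23. These are 41.7% and 8.33%, beside 9.64% and 22.5% of all genes. TYRP1, an enzyme of melanin synthesis, read 6.35, 6.46 and 6.26 in DMSO, 8.93, 9.19 and 8.99 in DT and 6.11, 6.21 and 6.10 in E, against 7.49, 7.34 and 7.89 in DTE. Its DTE arrays lay between the DMSO and the DT arrays without overlap, 1.22 above DMSO and 1.46 below DT (adjusted p = 2.98e-06 and 5.52e-07). OCA2, a melanosome transport protein, was at 4.38 in DMSO, 6.21 in DT and 4.37 in E, against 5.52 in DTE. MITF itself was at 6.38, 7.73, 5.70 and 7.02, so that DTE was 0.65 above DMSO, 0.71 below DT and 1.32 above E, each past the test. Of the 12 genes, 10 were called lower in DTE than in DT and 0 higher, where 742 of all genes (5.09%) were called lower and 1752 after quantile normalization, and the median was -0.65. MC1R, the melanocortin receptor, fell by 0.54 against DMSO, and this call, the only lower one of the list, was lost without replicate 1 or 2 of DMSO.

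The motif CATGTG, an E-box that MITF is known to bind, was searched on both strands in the 250 bases before each gene's start (RefSeq, build GRCh38.p14). It lay in 7 of the 10 melanocyte genes with a promoter in the table (70.0%) and in 9.54% of all 27303 promoters. Among the 10559 array genes with a promoter the share was 6.96%. Pieces of 3 promoters are shown, chosen after the values were seen, because they hold the motif and belong to genes described here, with the match in capitals and read 5′ to 3′ on the gene's strand.
TYRP1, chr9:12693201-12693384, plus strand: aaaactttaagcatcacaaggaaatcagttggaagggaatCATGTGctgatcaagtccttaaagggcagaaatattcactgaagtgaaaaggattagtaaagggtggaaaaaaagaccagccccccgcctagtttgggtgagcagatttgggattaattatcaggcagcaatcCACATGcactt
OCA2, chr15:28099423-28099508, minus strand: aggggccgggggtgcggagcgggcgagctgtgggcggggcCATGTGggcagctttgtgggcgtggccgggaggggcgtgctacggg
BCL2A1, chr15:79971197-79971261, minus strand: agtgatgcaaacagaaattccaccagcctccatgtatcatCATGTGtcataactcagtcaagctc
TYRP1 holds the motif once on each strand, and BCL2A1 holds it from 25 to 20 bases before its start. All 3 genes were lower in DTE than in DT (by 1.46, 0.69 and 1.36), but only TYRP1 and OCA2 were above DMSO. A match is a description of these letters and shows no binding.

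Markers of the dedifferentiated melanoma state were split. Of 11 measured genes, 5 were called higher and 5 lower than in DMSO, 45.5% each way beside 9.64% and 22.5% of all genes. AXL, a receptor tyrosine kinase of invasive melanoma cells, fell by 1.19, from 10.10, 10.18 and 9.90 to 9.02, 8.94 and 8.67. SOX9, a transcription factor of neural crest cells, fell by 1.55 and the matrix protein TNC by 0.99. CCN2, a matrix signalling protein, rose by 1.45 and ZEB2 by 0.97. ZEB2 is a transcription factor that melanocytes also use, so its place in this list is not settled. SOX2, a stem cell transcription factor, was at 6.95 in DMSO, 7.22 in DT and 6.22 in E, against 7.75 in DTE, the highest of the 4 groups. NGFR, a neural crest receptor, was 0.38 above DMSO, a call lost under some alternatives.

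Genes of DNA replication and mitosis fell together, beside 22.5% of all genes called lower than in DMSO and 9.64% higher. In DNA replication 19 of 20 measured genes were called lower and 0 higher, with a median of -0.69 (14 lower and -0.43 after quantile normalization). CDC45, part of the helicase that opens DNA at forks, read 6.67, 6.86 and 6.85 in DMSO and 5.42, 5.60 and 5.68 in DTE, a 2.34-fold fall. MCM7, a subunit of that helicase's ring, read 8.51, 8.54 and 8.53 in DMSO and 7.38, 7.38 and 7.41 in DTE. RRM2, which makes deoxynucleotides, fell by 1.10. In mitosis 21 of 24 genes were called lower and 0 higher, with a median of -0.55 (14 lower and -0.30 after quantile normalization). PLK1, a mitotic kinase, read 10.40, 10.41 and 10.38 in DMSO and 9.44, 9.39 and 9.35 in DTE. AURKA, a kinase of the spindle poles, fell by 0.94 and CCNB1, cyclin B1, by 0.93.

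Part of the replication genes were lower in DTE than in DT or in E. Against DT, 6 of the 20 replication genes were called lower in DTE and 0 higher, and against E 11 were lower and 0 higher. Of all genes 5.09% were lower than in DT and 22.4% lower than in E, and 1752 and 851 genes after quantile normalization. CDC45 was at 6.10 in DT and 6.14 in E, against 5.57 in DTE, below each in the single comparisons (adjusted p = 0.00469 and 0.00301), and MCM7 was at 7.98, 8.03 and 7.39 in that order. For mitosis the counts lower were 2 of 24 against DT and 8 of 24 against E, shares of 8.33% and 33.3% beside the same 5.09% and 22.4% of all genes. Regulators of the entry into S phase held 10 lower and 0 higher of 15 against DMSO, beside 22.5% and 9.64% of all genes. CCNE2, cyclin E2, fell by 0.92 and E2F3, an activator of replication genes, fell by 0.91 against DMSO.

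Part of the promoters of these groups carry the known letters of cell cycle control. TTTGAA, the cell cycle homology region bound by the DREAM repressor, lay in 11 of 21 mitosis promoters (52.4%) and 13.6% of all promoters. GGCGGGAA, a site of the E2F factors, lay in 6 of 17 replication promoters (35.3%) and 2.77% of all. With the lists exchanged, TTTGAA lay in 1 of 17 replication promoters (5.88%) and GGCGGGAA in 1 of 21 mitosis promoters (4.76%). Both were searched on both strands in the same 250 bases. These and the E-box above are 3 of 6 motifs searched. Each motif was searched in every list, and the pairs of motif and list given here are a selection. The ETS site CCGGAAG lay in 6 of 13 ribosome biogenesis promoters (46.2%) and 5 of 17 homologous recombination promoters (29.4%). It lay in 0 of 15 promoters of receptor tyrosine kinases. The sterol element CACCCCAC lay in 1 of 15 cholesterol synthesis promoters (6.67%) and 2.37% of all. For the ERK output genes, of which 8 had a promoter in the table, the AP-1 site TGANTCA lay in 1 (12.5%, and 6.6% of all promoters) and the ETS site CCGGAAG in 0 (8.82% of all). List members all come from the 10559 array genes with a promoter. Among those genes the shares were 10.4% for TTTGAA, 3.74% for GGCGGGAA and 12.4% for CCGGAAG. They were 5.11% for TGANTCA and 2.41% for CACCCCAC. Of the genes shown, PLK1 and RAD51AP1 are among those the results name, and CCNB2 and CDT1 were chosen for their match and after their values were seen.
PLK1, chr16:23678820-23678888, plus strand: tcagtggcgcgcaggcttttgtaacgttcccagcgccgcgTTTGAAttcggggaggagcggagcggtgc
CCNB2, chr15:59105077-59105145, plus strand: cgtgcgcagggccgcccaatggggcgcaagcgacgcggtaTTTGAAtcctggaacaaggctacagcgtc
CDT1, chr16:88803725-88803788, plus strand: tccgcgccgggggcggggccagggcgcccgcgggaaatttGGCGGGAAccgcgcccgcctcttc
RAD51AP1, chr12:4538828-4538889, plus strand: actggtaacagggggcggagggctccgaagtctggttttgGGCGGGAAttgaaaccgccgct
In PLK1 and CCNB2 the match lies at the same distance, from 29 to 24 bases before the start. PLK1 fell by 1.00, CCNB2, cyclin B2, by 0.72, CDT1, the factor that licenses origins, by 1.06 and RAD51AP1 by 1.00, all called lower in DTE than in DMSO.

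Part of the DNA repair genes were lower, beside 22.5% of all genes called lower than in DMSO and 9.64% higher. In homologous recombination, the repair of broken DNA by copying, 11 of 19 measured genes were called lower and 1 higher, with a median of -0.44 (7 lower and -0.25 after quantile normalization). RAD51AP1, an accessory factor of this route, read 6.16, 6.37 and 6.52 in DMSO, 5.55, 5.89 and 5.71 in DT and 5.33, 5.58 and 5.43 in E, against 5.24, 5.43 and 5.38 in DTE. It was thus 2.00-fold below DMSO, and its distances of -0.37 from DT and -0.10 from E did not pass the test (adjusted p = 0.0605 and 0.626). PALB2, which brings BRCA2 to breaks, was at 7.08, 6.52, 6.55 and 6.14 in DMSO, DT, E and DTE, and MUS81, a nuclease of branched DNA, fell by 0.66. RAD51B was 0.37 higher, a call lost under some alternatives. Against DT, 1 of the 19 genes was lower and 1 higher, a share of 5.26% each way beside 5.09% and 13.8% of all genes.

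In non-homologous end joining 2 of 5 genes were called lower: XRCC6 by 0.41 and XRCC5 by 0.31, the genes of the Ku pair that holds broken ends. Neither call remained after quantile normalization. In base excision repair 7 of 16 were called lower and 0 higher, with a median of -0.32, beside 22.5% and 9.64% of all genes. After quantile normalization 4 were lower and the median was -0.10. It held UNG, which cuts out uracil, at 7.56, 7.61 and 7.49 in DMSO and 6.44, 6.37 and 6.53 in DTE. UNG was also 0.60 below DT and 0.61 below E. XRCC1, a scaffold of single-strand break repair, fell by 0.75 and OGG1, which removes oxidised guanine, by 0.58. PARP1, the sensor of such breaks, differed by -0.30 (adjusted p = 0.0833) and MGMT, which reverses alkylation, was in the dimmest 25% in DMSO. None of the 3 measured Fanconi anaemia genes passed this test, with differences from -0.42 to -0.25. Among 14 checkpoint genes 9 were called lower and 0 higher, and CDC25A, a phosphatase that drives the cycle, fell by 1.40, CHEK1, a checkpoint kinase, fell by 1.05 and CLSPN, its adaptor, fell by 0.82. CHEK1 was at 6.64 in DT and 6.76 in E, against 6.55 in DTE.

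**Figure D4:**
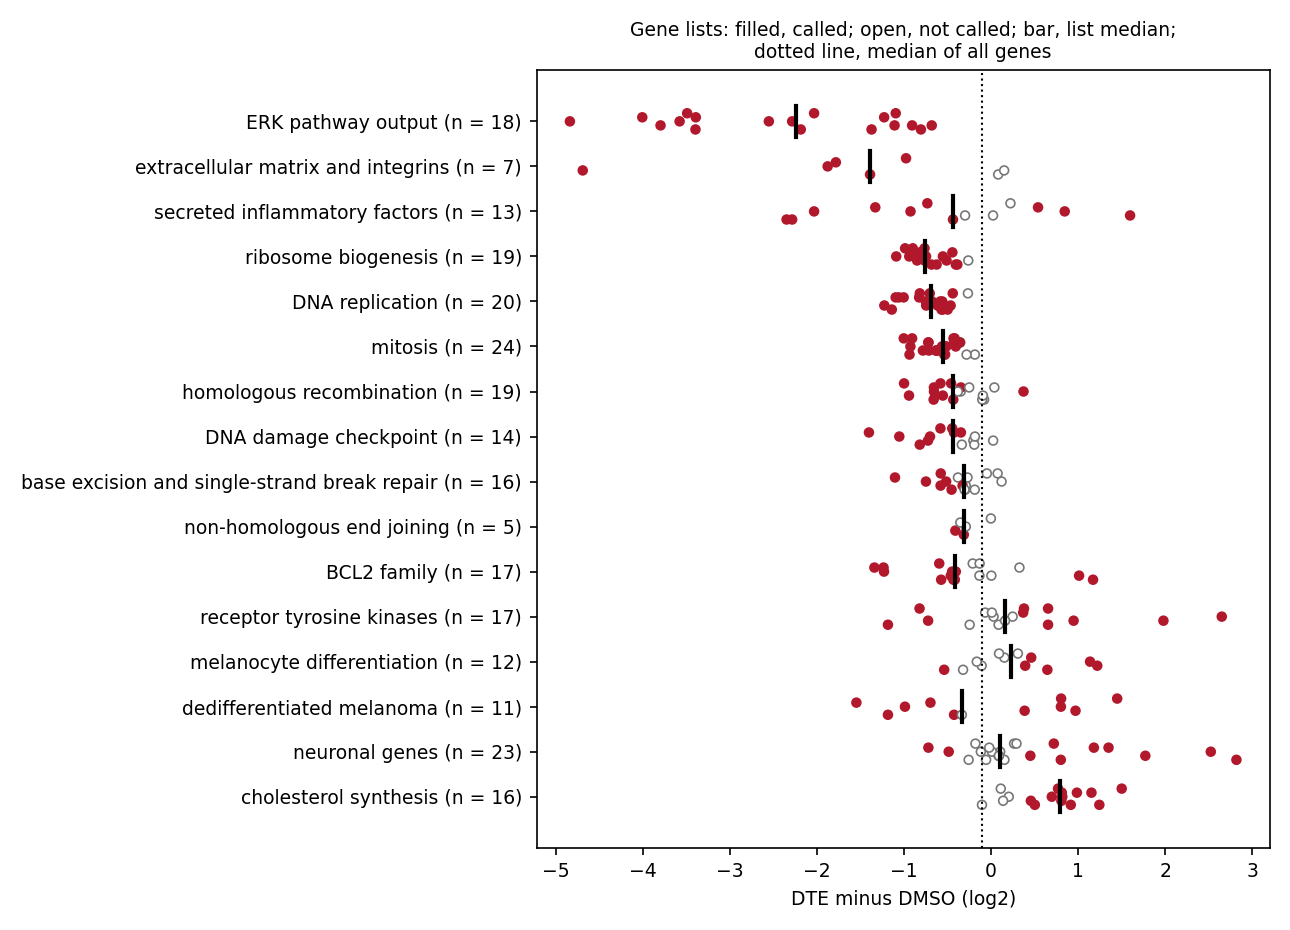
Differences between DTE and DMSO (log2) of the measured members of 16 gene lists, 1 point per gene, filled where called, with a bar at each list's median and a dotted line at the median of all genes (-0.11). ERK output lies wholly below 0 (median -2.24), cholesterol synthesis almost wholly above (0.79), and the repair lists lie between the replication list (-0.69) and the all-gene median.

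The BCL2 family, which sets the threshold for apoptosis, moved in both directions. Of 17 measured genes 2 were called higher and 10 lower (2 and 5 after quantile normalization). These are 11.8% and 58.8%, beside 9.64% and 22.5% of all genes, so the share called higher is near that of all genes. The 2 that rose, BMF and BCL2L11, which encodes BIM, are both killers of the BH3-only kind. BCL2L11 read 5.15, 5.79 and 5.43 in DMSO and 6.22, 6.51 and 6.66 in DTE, 2.01-fold higher, and BMF rose by 1.17. In DT they stood at 6.40 and 5.65 and in DTE at 6.46 and 5.77, differences of 0.06 and 0.12 that did not pass the test. MCL1, a protector, read 8.37, 8.59 and 8.20 in DMSO and 7.04, 7.19 and 7.25 in DTE, a 2.35-fold fall. PMAIP1, the killer NOXA, was at 7.16 in DMSO, 4.47 in DT and 7.40 in E, against 5.82 in DTE, so that DTE was 1.34 below DMSO and 1.35 above DT. BCL2A1 is described above with the genes lowest in DTE.

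Sterol synthesis rose. Of 16 measured genes of cholesterol synthesis and its control, 12 were called higher and 0 lower, with a median of 0.79 (15 higher and 0.94 after quantile normalization), and 12 were called higher whichever single array was left out. Of all genes 9.64% were called higher and 22.5% lower, with a median of -0.11 (14.2% each way after quantile normalization). HMGCS1, an early enzyme of the pathway, read 5.99, 6.35 and 6.32 in DMSO and 7.36, 7.43 and 7.59 in DTE, 2.37-fold higher. STARD4, a carrier of cholesterol inside cells, was at 5.46 in DMSO, 5.87 in DT and 6.95 in E, against 6.96 in DTE. INSIG1, a sensor that holds back the pathway's activator, was at 7.38, 7.95, 7.65 and 8.53, above each other group. The list's median difference from DMSO was 0.56 in DT and 0.39 in E, against 0.79 in DTE.

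Ribosome biogenesis, the making of ribosomal RNA and particles, fell in 18 of 19 measured genes with 0 higher and a median of -0.77 (14 lower and -0.50 after quantile normalization). NIP7, a factor of ribosomal RNA processing, read 8.81, 8.87 and 8.85 in DMSO and 7.63, 7.67 and 7.96 in DTE. DDX21, a nucleolar helicase, fell by 0.94 and RRP12 by 0.99. Against DT 3 of the 19 were called higher and 0 lower, and against E 18 were lower and 0 higher, beside 13.8% of all genes higher than in DT and 22.4% lower than in E. The share against DT is near that of all genes. Against DMSO 22.5% of all genes were called lower. Of 7 measured glycolysis genes 5 were called lower (3 after quantile normalization), HK2, a hexokinase, by 0.91, GAPDH by 0.60 and LDHA by 0.52.

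**Figure D5:**
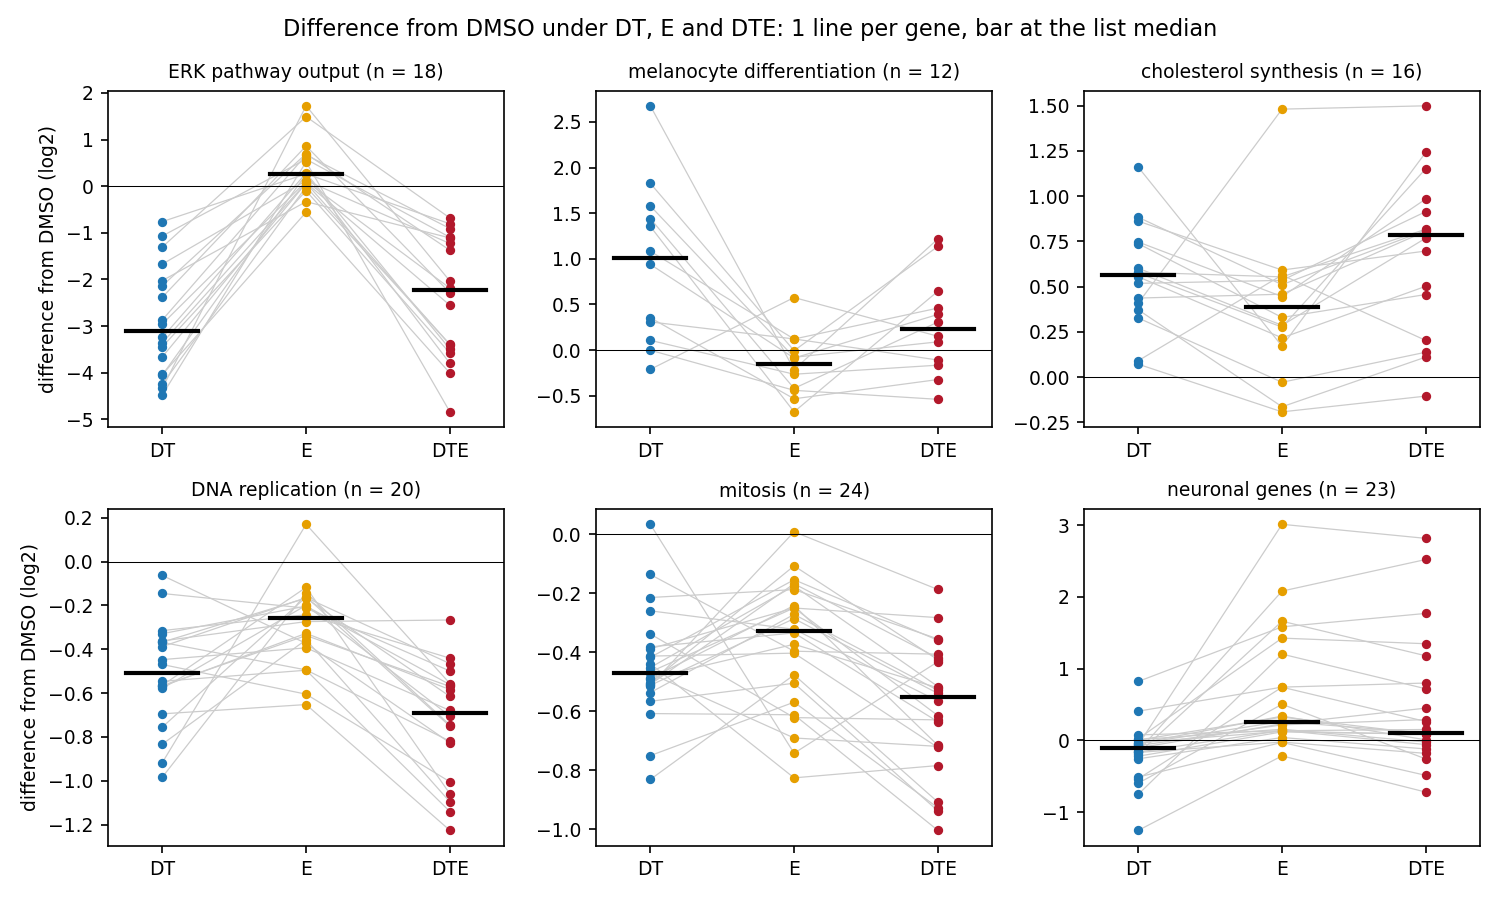
Difference from DMSO (log2) under DT, E and DTE for 6 gene lists, with 1 line per gene and a bar at the median. ERK output has medians of -3.10, 0.26 and -2.24, melanocyte genes 1.01, -0.15 and 0.23, and cholesterol synthesis 0.56, 0.39 and 0.79. The 3 columns share the DMSO arrays.

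Receptor tyrosine kinases, which receive growth signals at the surface, were called higher for 7 of 17 and lower for 3. These are 41.2% and 17.6%, beside 9.64% and 22.5% of all genes. The list leaves out the ephrin receptors EPHA2, EPHA4 and EPHA5, which are also receptor tyrosine kinases. EPHA2 read 7.4, 7.5 and 7.1 in DMSO and 6.0, 6.0 and 5.9 in DTE. EPHA4 read 6.5, 6.7 and 6.2 in DMSO and 5.3, 5.4 and 5.4 in DTE. EPHA5 went the other way, from 3.4, 3.4 and 3.3 to 4.3, 4.6 and 4.3. KIT, the stem cell factor receptor of melanocytes, read 3.81, 3.85 and 3.60 in DMSO, 4.85, 5.04 and 4.84 in DT and 4.79, 4.46 and 4.42 in E, against 5.68, 5.74 and 5.78 in DTE. It was 3.94-fold above DMSO and above each other group. ERBB4 rose by 2.65 and MERTK, a receptor for the clearance of dying cells, by 0.95, and MERTK stood at 5.83 both in E and in DTE. ERBB3 fell by 0.72 and DDR2, a collagen receptor, by 0.82. Within the cascade itself MAP2K1, which encodes the trametinib target MEK, fell by 0.80, SHC1, an adaptor, by 0.85 and ARAF by 0.77, while KSR1, a scaffold and the only one of the 10 measured cascade genes called higher, rose by 0.43. The KSR1 call was lost without replicate 1 or 3 of DMSO and without replicate 2 or 3 of DTE. MAP2K2 differed by -0.06 and MAPK3, an ERK kinase, by 0.27 (adjusted p = 0.875 and 0.105).

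Part of the neuronal genes were higher in DTE, at levels near those under entinostat alone. Of 23 measured genes 8 were called higher and 2 lower than in DMSO, 34.8% and 8.70% beside 9.64% and 22.5% of all genes. Against DT 9 were higher and 0 lower, 39.1% higher beside 13.8% of all genes. KIF5C read 3.43, 3.43 and 3.68 in DMSO, 3.43, 3.43 and 3.48 in DT and 6.60, 6.70 and 6.28 in E, against 6.31, 6.26 and 6.42 in DTE. SYT11, a synaptotagmin of vesicle traffic, was at 8.08, 8.90, 9.66 and 9.85 in DMSO, DT, E and DTE. Of 13 genes of synaptic contact 5 were called higher and 0 lower, among them CNTN1, a contactin, by 1.71, EPHA5, an ephrin receptor, by 1.02 and EFNB3 by 0.92. EPHA5 was not near its level under entinostat. It read 4.6, 4.7 and 4.7 in DT and 3.9, 3.6 and 4.1 in E, against 4.3, 4.6 and 4.3 in DTE. The neuronal genes SCG2 and SYP fell by 0.72 and 0.49, calls lost under some alternatives.

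Among the YAP and TEAD targets 4 of 10 were called higher and 2 lower. AJUBA, a scaffold at cell junctions, read 5.36, 5.44 and 5.32 in DMSO, 5.42, 5.43 and 5.51 in DT and 5.46, 5.15 and 5.26 in E, against 6.06, 6.11 and 6.01 in DTE, and only its DTE arrays stood apart. Against DT 7 of the 10 were called higher and 0 lower, beside 13.8% and 5.09% of all genes. Against E 1 was called higher and 1 lower, beside 2.08% and 22.4% of all genes. After quantile normalization 6 of the 10 were called higher than in DMSO and 2 lower, beside 14.2% of all genes each way.

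Secreted inflammatory factors were called lower for 7 of 13 and higher for 3, 53.8% and 23.1% beside 22.5% and 9.64% of all genes. IL11, a cytokine of the interleukin 6 family, read 7.46, 7.39 and 7.25 in DMSO and 4.95, 4.84 and 5.26 in DTE, while it stood at 8.47 in E. LIF, of the same family, fell by 2.29 and CXCL8 by 2.03. IL24, a cytokine first found in differentiating melanoma cells, was at 3.93 in DMSO, 3.05 in DT and 7.73 in E, against 5.53 in DTE. IL32 and CXCL10 were 0.84 and 0.54 higher, the latter a call lost under some alternatives. Matrix proteins held 5 lower and 0 higher of 7, and THBS2, a thrombospondin, fell by 1.88 and MMP1, a collagenase, fell by 1.78. Of 19 interferon-stimulated genes 4 were called higher and 5 lower (21.1% and 26.3%), the latter near the share of all genes (9.64% and 22.5%). IFI44L read 2.98, 3.02 and 2.94 in DMSO and 4.71, 4.86 and 5.15 in DTE and was above each other group. IFIT1, a sensor of foreign RNA, rose by 1.25, and RIGI, another such sensor, fell by 0.79. In DMSO the means of IFI44L and IFIT1 were in the dimmest 25% of genes, at its upper edge. MX2 fell by 0.73 and IRF1 by 0.72. Of 4 genes of MHC class I presentation 2 were lower, ERAP2 by 0.89 and TAPBP by 0.52, the latter not after quantile normalization. Neither of the 2 measured cancer-testis antigens passed this test.

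Stress responses were mixed, beside 9.64% of all genes called higher than in DMSO and 22.5% lower (14.2% each way after quantile normalization). Of 11 genes of the unfolded protein and amino acid response 8 were called lower and 1 higher (5 and 1 after quantile normalization): TRIB3 fell by 1.40, ATF5 by 1.39 and XBP1 by 1.01, and ATF3 rose by 1.22. Of 14 metallothionein and oxidative stress genes 4 were higher and 1 lower, with GSTM3, a glutathione transferase, at 1.10, HMOX1, haem oxygenase, at 0.84 and TXNRD1, thioredoxin reductase, at 0.65. Among 9 p53 targets 3 were higher and 4 lower (3 and 2 after quantile normalization). TP53INP1 rose by 1.74, PLK2 by 1.15 and SESN1 by 0.78, whereas GDF15 fell by 2.58 and BAX by 0.60. GDF15 read 8.39, 8.29 and 8.17 in DMSO and 5.64, 5.69 and 5.77 in DTE. Of 19 lysosome and autophagy genes 1 was higher and 6 lower, shares of 5.26% and 31.6% that are not far from those of all genes. After quantile normalization 6 were higher and 3 lower, and the median turned from -0.10 to 0.09. The cathepsins CTSS and CTSL fell by 0.97 and 0.67.

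None of the RNAs of the 4 measured class I deacetylases was called. HDAC1 differed from DMSO by -0.03, HDAC3 by -0.01, HDAC8 by 0.12 and HDAC2 by 0.28 (adjusted p = 0.866, 0.97, 0.646 and 0.181, in that order). Of the 15 measured deacetylase genes and partners 2 were called higher, HDAC5 by 0.89 and HDAC9 by 0.76, and 5 lower (3 and 2 after quantile normalization). These shares of 13.3% and 33.3% are not far from the 9.64% and 22.5% of all genes. HDAC4 fell by 1.10, the farthest. Of 10 nucleosome-binding and high mobility group genes 1 was higher and 6 lower, 10.0% and 60.0% beside the same shares of all genes. HMGN2, which loosens nucleosomes, read 5.04, 4.96 and 5.15 in DMSO, 4.68, 4.80 and 4.59 in DT and 3.83, 3.57 and 3.73 in E, against 3.48, 3.12 and 3.63 in DTE, while HMGA2, an architectural factor, was at 6.85, 4.61, 6.83 and 4.97. HMGN3 rose by 0.76.

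Markers of other cell types moved in small numbers, beside 9.64% of all genes called higher than in DMSO and 22.5% lower. Of 13 epithelial markers 2 were called higher, EPCAM by 0.49 and ESRP1 by 0.40, both from the dimmest 25% in DMSO, and KRT18 fell by 0.47. All 3 calls were lost under some alternatives. Of 3 measured fibroblast markers LUM, a matrix proteoglycan, rose by 1.63, to 8.66, 8.69 and 9.13 in DTE, and DCN by 0.67 within the dimmest 25%. The list's median was 0.67 against -0.11 for all genes, and its part in the other results was not tested.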

How the data were processed

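RNA of 12 A2058 samples (4 groups of 3) was measured on 1 Affymetrix array each. The deposited table holds linear intensity values that the authors had normalized, with RMA and the Transcriptome Analysis Console named per the submitters' processing notes; order, versions and genome build are not given in the sources used here. RMA evens the arrays' distributions, yet the medians over the named genes differ between arrays. Array medians over all probe sets are not given here, so whether the whole arrays differ was not tested. ERCC spike-in probe sets were not analysed here. Of 29396 probe sets, 14748 had 1 gene symbol, 0 several and 14648 none. Log2 was taken, and the brightest probe set stood for each of 156 genes with several. All 12 arrays were fitted with limma 3.58.1 (R 4.3.3; 8 residual degrees of freedom), checked on simulated data. Arrays carry no counts, so their number limits the precision. Named genes were the 12 largest called differences each way, up to 6 each way beyond all groups, up to 4 each way departing from the sum, up to 3 called each way in each of 35 lists, and 23 measured genes of a fixed set. Members and lists were chosen with earlier results of these data known. Histone genes were not analysed here. Single values used exact permutation tests. Alternatives were quantile normalization, median centring, no dim genes, an intensity trend, averaged or all probe sets, a replicate block, fewer arrays and only the 2 groups.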

Additional observations from a re-analysis of the deposited data

Results flagged for a closer look

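Genes whose level under the 3 drugs differed from the sum of the 2 separate treatments, by the interaction term of the limma fit, numbered 82 above that sum and 69 below, or 1.04% of genes. Of the genes named in the report, 22 were among them. The departures of genes highest in DTE were 1.30 for A2M, 1.53 for PMP2, 1.39 for NPY6R, 1.48 for LRP2, 1.27 for SOX2 and 0.69 for AJUBA, all log2. CD24, also highest in DTE, departed by -1.44. Genes lower in DT than in DMSO, and less far below DMSO or above it in DTE, departed by 1.55 (SMAGP), 1.55 (CTLA4), 1.54 (DKK1), 1.29 (FJX1), 1.11 (PMAIP1) and 0.87 (SPRY2). PRR7-AS1, lowered by each treatment, departed by 1.03. Genes that E raised and DTE did not, or raised less, departed by -1.62 (TMEM156), -1.54 (PRR9) and -1.32 (IL24), and genes that DT raised and DTE raised less by -1.74 (TP53INP2) and -1.24 (TYRP1). BCL2A1, TRIB1 and MIR1226, lowest in DTE, departed by -1.67, -0.90 and -0.95. The calls of AJUBA, MIR1226 and IL24 were lost under 13, 9 and 1 of the alternative settings, and the other 19 held under every setting run.

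Probe sets with no gene symbol were outside the comparison of genes. Fitted with the named ones, 908 of 14648 were higher in DTE than in DMSO and 1755 lower, 18.2% in all, and 218 and 186 of them differed by at least 2-fold.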

How the results depend on the processing

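No called difference of a named gene changed its direction under any alternative run. Of the 146 calls of named genes between DTE and DMSO, 128 held in every alternative and 18 were lost in some, while 4 genes gained a call (HDAC2, MAPK3, PARP1 and TMEM156). Of 85 calls against DT and 110 against E, 65 and 82 held in every alternative. Quantile normalization gave 2064 genes lower in DTE than in DMSO, 1752 lower than in DT, and 1019 higher and 851 lower than in E; it gave 174 and 140 genes above and below the sum and 157 beyond all groups on the higher side. Median centring gave 2245 lower than in DT, 978 higher and 1007 lower than in E, 160 and 107 for the sum and 104 higher beyond all groups. Median centring moved the median difference of all genes from 0.06 to -0.11 against DT and from -0.19 to 0.03 against E. An intensity trend with robust variances gave 136 and 106 for the sum and 51 lower beyond all groups. Testing every probe set gave 2247 higher than in DMSO, 3132 higher than in DT, 484 higher than in E and 117 below the sum. Leaving out 1 array at a time gave 1165 to 1424 genes higher and 2342 to 3343 lower than in DMSO, 1462 to 2196 higher and 473 to 777 lower than in DT (473 without replicate 2 of DT), 224 to 311 higher and 2132 to 3372 lower than in E (2132 without replicate 1 of DTE), 46 to 108 above and 36 to 69 below the sum, and 21 to 46 higher and 11 to 31 lower beyond all groups. The higher count beyond all groups fell below 30 without any one of the E arrays or replicate 2 or 3 of DTE, and the lower count to 15 or fewer without any DT, E or DTE array or replicate 1 of DMSO. The count above the sum was 46 to 54 without replicate 2 of DMSO, 1 or 3 of DT, 3 of E, or 2 or 3 of DTE, and the count below it was 36 to 44 without replicate 1 or 3 of DMSO, 2 of DT, or 1 or 3 of E. The causes of these shifts were not tested. Deviations of samples with the same replicate number had small, mostly positive correlations (from -0.10 to 0.17, 3 of 18 over 0.1). For different numbers they ran from -0.17 to 0.17, with 2 of 36 over 0.1. The main fit does not take the numbers as pairs, and whether they mark pairs was not tested. A replicate block moved no count by more than 1.5 times. It gave 1461 genes higher and 3485 lower than in DMSO, beside 1405 and 3285 without it. Dim genes have the least signal over background, and 11 of the named genes lay in the dimmest 25% in DMSO.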
